A study of Mus musculus with 32 samples.

Results

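Mouse embryonic fibroblasts (MEFs) reprogrammed for 4 days in A2 medium were compared with MEFs reprogrammed for 4 days in S2 medium. The 4 libraries, 2 for each medium, were chosen by their labels for medium and day from 32 libraries in the series. A2 joined ascorbic acid to 2i, the pair of the GSK3 inhibitor CHIR-99021 and the MEK inhibitor PD-0325901. S2 joined SGC0946, an inhibitor of the histone methyltransferase DOT1L, to the same 2i. All 4 cultures grew on irradiated feeder MEFs in embryonic stem cell medium with 15% serum and leukaemia inhibitory factor, with doxycycline (2 ug/mL). The agent particular to each medium, 50 ug/mL ascorbic acid or 5 uM SGC0946, was given from day 0, 2i followed 12 h later, and medium was renewed on days 2 and 4. The labels give the cells' age as embryonic and name neither the mouse strain nor the genes that doxycycline switches on. The media differ in 2 agents at once, so ascorbic acid in A2 and SGC0946 in S2 cannot be told apart as the source of a difference.

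Ascorbic acid keeps the iron of 2-oxoglutarate-dependent dioxygenases in its active state. These enzymes include the Tet enzymes that oxidise methylated DNA, the Jumonji histone demethylases, and the prolyl hydroxylases of collagen and of the hypoxia-inducible factors. DOT1L methylates histone H3 along the bodies of transcribed genes and has been described as a barrier to reprogramming that helps to keep fibroblast genes active. During reprogramming, fibroblasts shut down mesenchymal genes, take on epithelial adhesion genes, and later start the pluripotency network.

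Cells of 3' droplet libraries (ddSEQ, SureCell) were counted in unique molecular identifiers (UMIs). After barcodes on the authors' list of feeder MEFs were left out, 477 A2 cells and 361 S2 cells remained, 838 of the 7650 cells kept in the series. The A2 libraries held 303 and 174 cells with 4505701 and 2374823 UMIs, and the S2 libraries held 192 and 169 cells with 2829608 and 2342465 UMIs, for replicates A and B in each case. Median depth was 13915 and 13336.5 UMIs per cell in A2, against 14071.5 and 14014 in S2. Listed feeder barcodes made up 1.62% and 1.14% of barcodes in A2, against 9.86% and 13.8% in S2. No barcode was shared between the 4 libraries, and 7 of theirs occurred in another library of the series. Summed CPM of 12 fibroblast markers was 10856 and 11101 in A2, against 6472 and 7302 in S2, with 24110 and 22702 in untreated MEFs. Of 8 macrophage markers, Ptprc, Tyrobp, C1qa and C1qb were at 0 in the 4 libraries, and so were the 3 erythroid markers.

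In A2 medium 13 of 20 contractile and YAP target genes and 15 of 32 Hox genes were higher than in S2 medium and 0 were lower, beside 6.13% higher and 4.97% lower among all genes tested. Of 30 epithelial genes 15 were lower and 0 higher. Of 42 genes of glycolysis and the hypoxia response 13 were lower and 3 higher, and of 44 pluripotency genes 9 were lower and 2 higher. Each library's UMIs were added up across its kept cells, and the sums of the 32 libraries were tested together with edgeR's quasi-likelihood method. Genes with an adjusted p below 0.05 (Benjamini-Hochberg) are referred to as called, whatever their fold. Of 13229 genes tested, 811 were higher in A2 than in S2 (6.13%) and 658 were lower (4.97%), together 11.1% of genes tested. At least 2-fold differences were reached by 252 of the genes called higher and 362 of those called lower. Values after ± are standard errors (SE) of log2 fold changes, A2 over S2, with n = 2 libraries per medium, and levels are CPM, UMI counts scaled to a common library size with TMM factors. A sum over cells cannot tell a larger share of cells with a transcript from more transcript per cell.

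Called genes were compared with their levels in untreated MEFs and in embryonic stem cells (ESCs). Of the 811 genes higher in A2, 443 were at least 2-fold higher in MEFs than in ESCs (54.6%), against 24.4% of all genes tested. Of the 658 lower in A2, 262 were at least 2-fold higher in ESCs than in MEFs (39.8%), against 21.4% of all genes tested. The opposite pairing was less frequent, at 76 of the higher genes with ESC-biased levels (9.37%) and 130 of the lower genes with MEF-biased levels (19.8%). MEF and ESC libraries entered no side of the tested difference. Listed feeder cells, themselves MEFs, were left out, at 1.62% and 1.14% of A2 barcodes, against 9.86% and 13.8% of S2 barcodes. With listed cells kept, 76.8% of the higher and 83.6% of the lower calls were shared. The MEF and ESC shares were not recounted in that setting.

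**Figure D1:**
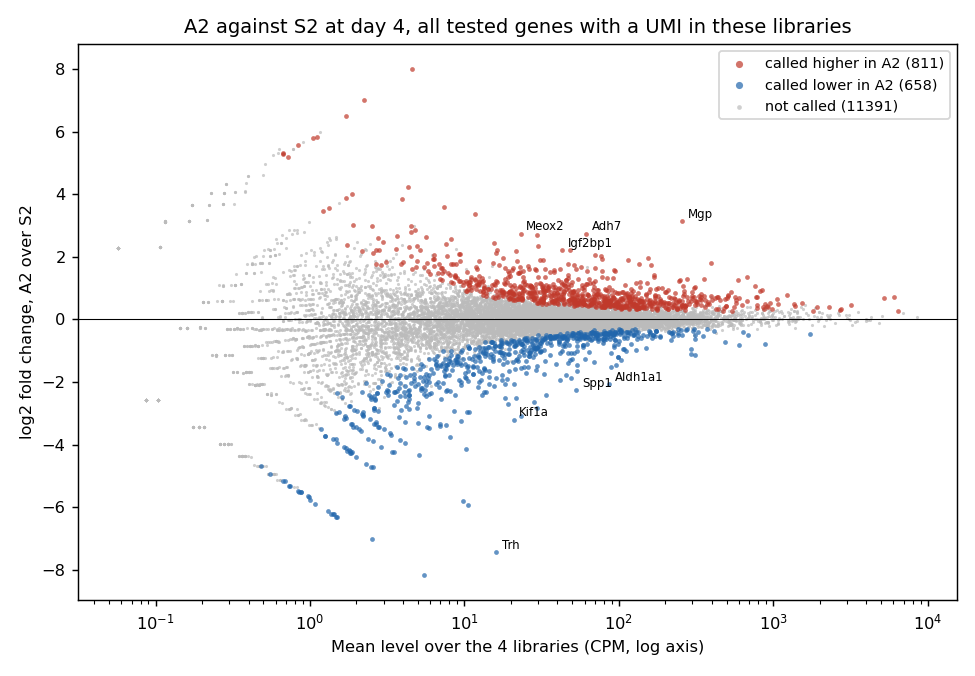
Each point is a gene tested at day 4 with a UMI in these libraries, placed by its mean level over the 4 libraries (CPM, log axis) and its log2 fold change, A2 over S2. Red points are the 811 genes called higher in A2, blue points the 658 called lower, and the slanted rows of points at low level are genes with few or 0 UMIs, whose fitted fold change is not a bound.

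The 12 largest increases in A2 were taken from called genes at 25 CPM or more in the higher medium whose libraries did not overlap. Mgp, the matrix Gla protein that restrains calcification, had 420 and 508 CPM in A2, against 44.9 and 61.1 CPM in S2. Its log2 fold change was 3.13 ± 0.44 (adjusted p = 8.10e-06), and 2.09 with listed feeder cells kept. Adh7, an alcohol dehydrogenase that oxidises retinol, had 117 and 97.8 CPM in A2, against 18.8 and 13.2 CPM in S2 (2.74 ± 0.31, adjusted p = 1.89e-07). Both A2 libraries stood well above both S2 libraries for these 2 genes. Meox2, a homeobox factor of mesoderm, had 37.4 and 43.3 CPM in A2, against 7.65 and 4.13 CPM in S2 (2.73 ± 0.32). Chst3, which sulfates chondroitin, had 44.8 and 55.8 CPM in A2, against 10.1 and 9.49 CPM in S2 (2.33 ± 0.24). Igf2bp1, an RNA-binding protein of fetal cells, had 77.6 and 63.1 CPM in A2, against 15.7 and 15.3 CPM in S2. At 2.20 ± 0.17 and an adjusted p of 4.52e-10, it had the smallest p of the 12 largest increases. Aox1, an aldehyde oxidase, Glipr1, a CAP-family protein, Vamp5, a vesicle protein of the SNARE family, and Mgst2, a microsomal glutathione transferase, were also called, at log2 fold changes of 2.45, 2.69, 2.20 and 2.13, and Glipr1 was at 3.52 without S2 A. The calls for Tgm1, a transglutaminase of the epidermis (2.22), and Msln, mesothelin, were each lost when a library was left out. Tgm1 was at 1.62 (adjusted p = 0.0702) without S2 A, and Msln was not called without A2 A, without S2 A or with listed cells kept (adjusted p = 0.187, 0.274 and 0.116).

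Cells with a UMI showed the same order for Adh7. After each cell was thinned to 1000 UMIs, 11.6% and 9.47% of A2 cells had an Adh7 UMI, with Wilson 95% intervals of 8.42% to 15.6% and 5.91% to 14.8%. In S2 the shares were 1.04% (0.286% to 3.72%) and 1.18% (0.325% to 4.21%). In ESCs, where the gene was near 0, 0 of 138 and 0 of 164 thinned cells had an Adh7 UMI, and a floor of 3 cells allows shares with a UMI of up to 2.17% and 1.83%. The thinned S2 shares were under that floor and the A2 shares above it. Without thinning, 50.2% and 48.9% of A2 cells had an Adh7 UMI, against 16.7% and 12.4% of S2 cells, with 8.72% and 11.1% of MEFs and 0.725% and 0.610% of ESCs. Unthinned S2 shares were above those of ESCs. Intervals cover counting error only, and 5 cells of A2 B had too few UMIs to be thinned.

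The largest decreases in A2 were taken by the same rule. Alpl, the tissue-nonspecific alkaline phosphatase stained as an early mark of reprogramming, had 8.27 and 5.58 CPM in A2, against 38.3 and 66.4 CPM in S2 (-2.83 ± 0.25, adjusted p = 5.61e-09). The lower S2 library was several times the higher A2 library. Kif1a, a kinesin motor of axonal transport, had 4.36 and 3.43 CPM in A2, against 28.9 and 46.6 CPM in S2 (-3.21 ± 0.36). Nt5e, the cell-surface nucleotidase CD73, had 8.04 and 14.6 CPM in A2, against 65.1 and 47.9 CPM in S2 (-2.42 ± 0.24). Aldh1a1, a retinaldehyde dehydrogenase, had 34 and 31.7 CPM in A2, against 130 and 150 CPM in S2 (-2.08 ± 0.30, adjusted p = 1.76e-05). So Adh7 and Aldh1a1, which both oxidise retinoids, differed in opposite directions. Trh, the precursor of thyrotropin-releasing hormone and abundant in ESCs, had 1 UMI in A2 and 175 UMIs in S2. Its ratio was 0.00453 (exact 95% interval for counting 0.000114 to 0.0256), and its call was lost without A2 A. Without thinning, 6.25% and 4.73% of S2 cells had a Trh UMI, against 0.330% and 0% of A2 cells. The interval treats UMIs as independent counts, though 1 cell can hold several.

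Rragd, a Rag GTPase of amino acid sensing, Bex4, Nat8l, which makes N-acetylaspartate, the actin-associated Afap1l1 and Myb, a proto-oncogene of blood progenitors, fell by 2.51, 2.63, 2.50, 3.09 and 2.14 on the log2 scale. Spp1, osteopontin, fell by 2.27, with 21.1 and 13.3 CPM in A2, against 43.8 and 135 CPM in S2. Its value rested on the S2 library B, and was -1.26 (adjusted p = 0.0185) without it. Afap1l1 was at -3.77 without A2 A.

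**Figure D2:**
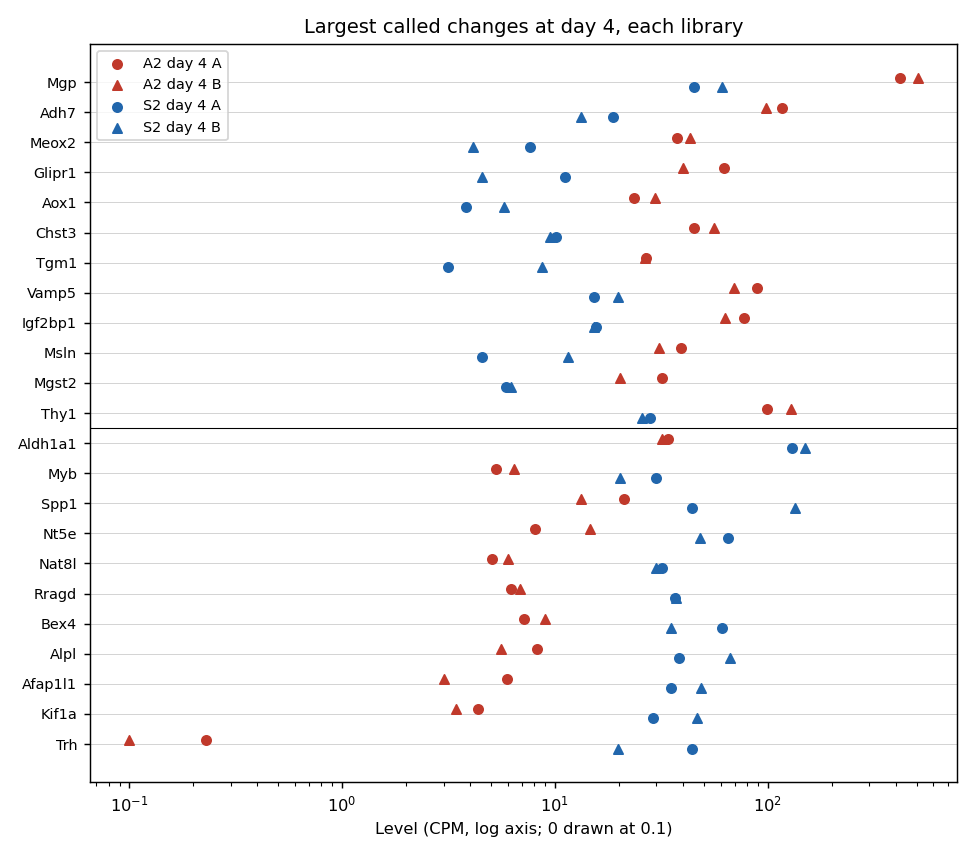
Levels (CPM, log axis) of the 12 largest increases (above the line) and 11 of the 12 largest decreases (below it) in each library, with A2 in red and S2 in blue, and circles for replicate A and triangles for replicate B. Genes were selected for no overlap, so the 4 points of each gene fall into 2 separate pairs by medium. The libraries of S2 lie well apart for Spp1, at 43.8 and 135 CPM.

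Many epithelial genes were lower in A2. Of 30 members tested, 15 were called lower and 0 higher, beside 4.97% and 6.13% of all genes tested, and the median log2 fold change was -1.30, beside -0.00 over all genes. Cdh1, the E-cadherin of epithelial junctions, had 48.2 and 43.3 CPM in A2, against 140 and 124 CPM in S2 (-1.52 ± 0.15, adjusted p = 4.00e-08). Spint2, an inhibitor of epithelial serine proteases, had 32.6 and 23.2 CPM in A2, against 82.8 and 75.5 CPM in S2 (-1.46 ± 0.17). Pkp1, a desmosome protein, had 2.30 and 2.57 CPM in A2, against 18.8 and 19.4 CPM in S2 (-2.97 ± 0.38). These 3 genes were the called members of smallest p, so the gap between their A2 and S2 libraries adds no further evidence. The tight-junction genes Cldn3, Ocln and Crb3, the desmosome genes Dsp, Dsc2 and Dsg2, the epithelial regulators Esrp1, Grhl2, Ehf and Ovol2, the protease inhibitor Spint1 and the cadherin Cdh3 completed the 15. The count was 8 without A2 A and 9 without S2 A, each with fewer libraries. Summed CPM of 9 epithelial markers was 74.9 and 66.1 in A2, against 225 and 186 in S2, with 5.48 and 10.5 in MEFs.

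Shares of cells with a Cdh1 UMI ran the same way and were not tested. Their intervals cover counting error within a library only, and those of both A2 libraries overlapped that of S2 A. After thinning to 1000 UMIs, 4.29% (2.52% to 7.20%) and 4.73% (2.42% to 9.06%) of A2 cells had a Cdh1 UMI, against 9.90% (6.43% to 14.9%) and 15.4% (10.7% to 21.6%) of S2 cells. In MEFs, 0 of 298 and 0 of 431 thinned cells had one, and the floor of 3 cells allows shares with a UMI of up to 1.01% and 0.696%. Without thinning the shares were 27.7% and 25.9% in A2, against 61.5% and 56.8% in S2, and MEFs, with medians of 22796 and 19102 UMIs per cell, were at 0.336% and 0.464%. For Alpl, 0.660% and 0% of thinned A2 cells had a UMI, against 6.25% and 5.92% of thinned S2 cells.

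Of 44 pluripotency genes tested, 9 were called lower in A2 and 2 higher, with a median of -0.32. Summed CPM of 10 pluripotent markers was 136 and 149 in A2, against 109 and 77.2 in S2, and ESCs had 4986 and 4887. L1td1 alone made up 132 and 142 CPM of the A2 sums and 89.1 and 60.3 CPM of the S2 sums. So the higher sum in A2 was that of 1 gene, and of the 10 markers 1 was called higher and 2 lower. The median was -0.72 with genes at 0 in 1 medium set at their bound and without 12 members too rare for a fold. Epcam, an adhesion protein of epithelial and pluripotent cells, had 4.13 and 7.72 CPM in A2, against 24.4 and 21.5 CPM in S2 (-2.07 ± 0.35, adjusted p = 9.80e-05). Nanog, a core pluripotency factor, had 1.61 and 3.00 CPM in A2, against 9.39 and 8.67 CPM in S2 (-2.09 ± 0.54), where ESCs had a mean of 377 CPM. The Nanog call was lost without A2 A (adjusted p = 0.238) and without S2 A (adjusted p = 0.0799). Sall4, a zinc-finger partner of the same network, had 3 UMIs in A2 and 28 in S2, a ratio of 0.0849 (0.0165 to 0.275), and was not called without A2 A or without S2 A (adjusted p = 0.0656 and 0.0711). Pou5f1 had 3 UMIs in A2 and 4 in S2, Sox2 had 6 and 3, and neither was called. The 2 higher members ran the other way. L1td1, an RNA-binding protein of pluripotent cells, had 132 and 142 CPM in A2, against 89.1 and 60.3 CPM in S2 (0.86 ± 0.20), and was at an adjusted p of 0.0955 without S2 B. Fgf4, a growth factor of pluripotent cells, was called at 0.66 ± 0.20, a call that ended without each of A2 A, A2 B and S2 B and with DESeq2 (adjusted p = 0.195, 0.0649, 0.307 and 0.0781). The count of lower members was 2 without A2 A and 5 without S2 A. Klf4, which may also take UMIs from induced factors, had 29.6 and 24.9 CPM in A2, against 26.1 and 37.1 CPM in S2.

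Mesenchymal transcription factors were higher in A2 or not called. Of 33 tested, 11 were called higher (33.3%, beside 6.13% of all genes tested) and 0 lower, with a median of 0.63. The 11 were also called higher at day 6. Tcf4, an E protein, had 117 and 115 CPM in A2, against 57.4 and 56.1 CPM in S2 (1.03 ± 0.10, adjusted p = 1.73e-08). Runx2, the regulator of bone differentiation, had 38.1 and 40.8 CPM in A2, against 9.74 and 16.1 CPM in S2 (1.62 ± 0.25, adjusted p = 2.99e-05). Beside Meox2, the other called members were Twist2, Zeb1, Prrx1, Prrx2, Foxc1, Tbx5, Tbx15 and Ebf1. Twist1, a driver of mesenchymal identity, was not called, with 103 and 99.1 CPM in A2, against 79.0 and 94.1 CPM in S2 (0.23 ± 0.19).

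Fibroblast surface markers were split, with 6 of 17 called higher (35.3%) and 2 lower (11.8%) in A2, beside 6.13% and 4.97% of all genes tested. Their median was 0.43. Thy1, whose loss marks fibroblasts that begin to reprogram, had 98.7 and 129 CPM in A2, against 27.8 and 25.6 CPM in S2 (2.07 ± 0.22, adjusted p = 8.50e-08). Lrp1, an endocytic receptor, had 248 and 250 CPM in A2, against 61.9 and 88.3 CPM in S2 (1.74 ± 0.13, adjusted p = 1.54e-10). Ly6a, the Sca-1 antigen, had 1092 and 840 CPM in A2, against 357 and 400 CPM in S2 (1.36 ± 0.21). Cells with a Thy1 UMI after thinning were 7.92% (5.38% to 11.5%) and 12.4% (8.27% to 18.2%) in A2, against 2.08% (0.813% to 5.23%) and 2.37% (0.924% to 5.93%) in S2, beside 0.725% and 0% in ESCs. Unthinned shares were 40.9% and 40.8% in A2, against 19.8% and 22.5% in S2. The 2 lower members were Nt5e and Pdgfra, which had 0 UMIs in A2 and 5 UMIs in S2, and whose call was lost without any 1 of the 4 libraries. With listed feeder cells kept, Thy1 was at 0.80 (adjusted p = 0.0780) and Lrp1 at 0.86. Listed barcodes were 1.62% and 1.14% of A2 barcodes, against 9.86% and 13.8% of S2 barcodes, and their part in these values beyond that setting was not tested.

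Contractile and YAP target genes had the largest share of called members, with 13 of 20 higher in A2 and 0 lower (median 0.77). Vim, the intermediate filament of mesenchymal cells, had 7376 and 7659 CPM in A2, against 4482 and 4763 CPM in S2 (0.70 ± 0.10, adjusted p = 5.83e-06). Tagln, an actin-binding protein of smooth muscle and myofibroblasts, had 563 and 668 CPM in A2, against 157 and 200 CPM in S2 (1.79 ± 0.26), and was at 1.14 with listed cells kept. Axl, a receptor tyrosine kinase and YAP target, had 201 and 209 CPM in A2, against 105 and 117 CPM in S2 (0.89 ± 0.13). The other 10 were Acta2, Actg2, Cnn2, Myl9, Myh9, Amotl2, Flna, Actn1, Csrp1 and Cald1, most of them genes of actin filaments and their myosin. The count was 7 without S2 A and 8 with listed cells kept.

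Collagens differed in both directions. Of 23 tested, 6 were called higher (Col1a2, Col3a1, Col4a1, Col4a2, Col5a2 and Col12a1) and 3 lower (Col5a3, Col6a2 and Col18a1), with a median of 0.16. These were 26.1% and 13.0%, beside 6.13% and 4.97% of all genes tested. Col4a2, a chain of basement-membrane collagen, had 403 and 433 CPM in A2, against 230 and 264 CPM in S2 (0.76 ± 0.14). Col5a2, a fibril collagen chain, had 344 and 365 CPM in A2, against 135 and 158 CPM in S2 (1.27 ± 0.15, adjusted p = 5.29e-07). Col6a2, a chain of beaded-filament collagen, had 46.2 and 34.7 CPM in A2, against 71.3 and 82.5 CPM in S2 (-0.89 ± 0.19). The balance turned with the feeder list, to 1 higher and 6 lower with listed cells kept, where Col5a2 was at 0.18 (adjusted p = 0.519). Without S2 A, 3 were higher, and without S2 B, 9 were. Col1a1, the main chain of type I collagen, had 123 and 148 CPM in A2, against 61.9 and 174 CPM in S2, so the S2 pair enclosed the A2 pair (0.21 ± 0.27, not called). Col1a1 was called higher without S2 B (1.13, adjusted p = 0.00667) and called lower with listed cells kept (-0.83, adjusted p = 0.0315).

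Enzymes that process collagen showed 6 of 25 called higher (24%) and 2 lower (8%), beside 6.13% and 4.97% of all genes tested. Their median was 0.16. Pcolce, an enhancer of procollagen cleavage, had 209 and 154 CPM in A2, against 44.5 and 54.1 CPM in S2 (1.90 ± 0.17, adjusted p = 5.61e-09). Loxl3, a lysyl oxidase, had 62.0 and 51.0 CPM in A2, against 20.5 and 17.7 CPM in S2 (1.57 ± 0.20). P4ha1 and P4ha2, the catalytic subunits of the ascorbate-dependent collagen prolyl hydroxylases and also hypoxia-response genes, fell by 0.54 and 0.93 on the log2 scale. The calls of both were lost without A2 A, A2 B or S2 B (adjusted p from 0.0866 to 0.604). Among matrix glycoproteins and proteoglycans, 6 of 34 were called higher (17.6%) and 4 lower (11.8%), with a median of 0.25. With listed cells kept, 4 were higher and 9 lower. Nid2, a basement-membrane nidogen, had 514 and 569 CPM in A2, against 318 and 341 CPM in S2 (0.72 ± 0.11). Efemp1, a fibulin, had 249 and 264 CPM in A2, against 160 and 118 CPM in S2 (0.87 ± 0.13).

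Hox genes were called higher in A2 in each of the 4 clusters, and 0 were called lower. These homeobox factors record the position along the body axis from which a fibroblast came. Of 32 Hox genes tested, 15 were called higher and 0 lower, with a median of 0.98. The clusters were read on mm10, GENCODE positions. In Hoxa (chr6:52155590-52260880) 4 of 9 were called, in Hoxb (chr11:96194316-96368256) 2 of 9, in Hoxc (chr15:102921103-103036852) 5 of 7 and in Hoxd (chr2:74668310-74765142) 4 of 7. Hoxc8 had 45.5 and 41.2 CPM in A2, against 16.4 and 17.7 CPM in S2 (1.36 ± 0.23, adjusted p = 1.33e-04), and MEFs had 45.5 and 38.0 CPM. Hoxc6 had 34.2 and 33.9 CPM in A2, against 14.3 and 9.08 CPM in S2 (1.52 ± 0.25), and MEFs had 41.8 and 32.4 CPM. For these 2 genes A2 levels were near those of untreated MEFs and S2 levels were below them. Not every called Hox gene followed this order. Hoxa10 had 41.8 and 54.1 CPM in A2, against 24.7 and 20.2 CPM in S2, and MEFs, at 21.9 and 22.7 CPM, were near S2. Hoxb2 was below the MEF level in both media, with 7.35 and 12.9 CPM in A2 and 3.13 and 3.71 CPM in S2. MEFs had 33.0 and 34.7 CPM of Hoxb2. Hoxa5 had 17.7 and 21.4 CPM in A2, against 3.48 and 7.43 CPM in S2 (1.85 ± 0.34), and was at 2.47 without S2 B.

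Within the Hoxd cluster the called genes were those of high number. Hoxd10, Hoxd11 and Hoxd13, which pattern the distal limb, were at 2.07 ± 0.44, 2.65 ± 0.55 and 0.88 ± 0.24, and Hoxd12, with 14 UMIs in A2 and 0 in S2, was at least 3.70-fold higher in A2. Hoxd4, Hoxd8 and Hoxd9 were not called, at 0.18, -0.25 and 0.28. In Hoxa the called genes were Hoxa5, Hoxa7 (adjusted p = 0.0458), Hoxa10 (1.06 ± 0.21) and Hoxa11 (1.41 ± 0.35). Hoxa2 (1.69), Hoxa3 (0.09), Hoxa4 (-0.65) and Hoxa9 (0.57) were not called, Hoxa2 and Hoxa9 at adjusted p = 0.0620 and 0.0607. In Hoxb the called genes were Hoxb2 and Hoxb3, at low numbers. In ESCs every Hoxc gene called here was at 0 to 0.419 CPM. The list, which adds other homeobox factors to the clusters, stood at 16 of 34, or 8 without A2 A, 7 without S2 A and 9 with DESeq2. Overlapping transcripts of a cluster can share 3' reads, and the counting rule for them is not given in the sources used here.

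**Figure D3:**
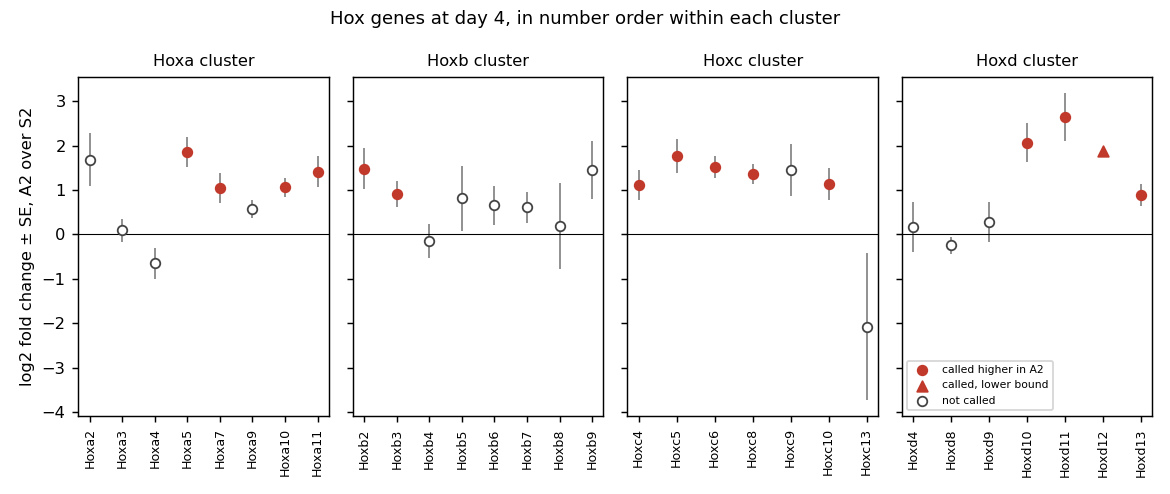
Log2 fold changes at day 4, A2 over S2, with SE bars, for Hox genes reported here with a UMI in the 4 libraries, by cluster and in number order. Red points were called higher in A2, open points were not called, and the triangle marks Hoxd12 at its lower bound, since S2 had 0 UMIs. Red points fill most of Hoxc and the upper end of Hoxd.

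Genes of glycolysis and the hypoxia response were called more often lower than higher in A2. Prolyl hydroxylases that need ascorbate mark hypoxia-inducible factors for destruction, and those factors drive many of these genes. The activity of those factors was not measured here, and a link to the values below was not tested. Of 42 members tested, 13 were called lower and 3 higher, with a median of -0.25, and 35 of 42 had a negative fold change. Pdk1, a kinase that turns pyruvate away from mitochondria, had 40.0 and 37.3 CPM in A2, against 101 and 97.4 CPM in S2 (-1.35 ± 0.15, adjusted p = 2.00e-07). Slc2a3, a glucose transporter, had 49.6 and 53.6 CPM in A2, against 142 and 138 CPM in S2 (-1.45 ± 0.17). Ak4, a mitochondrial adenylate kinase, had 14.7 and 11.6 CPM in A2, against 36.2 and 41.3 CPM in S2 (-1.51 ± 0.19). The libraries of each medium lay close together for these 3 genes, and levels in ESCs, at means of 254, 912 and 32.1 CPM, ran from near the S2 level to far above it. The other 10 lower members were Slc16a3, Pgam1, Ldha, Slc2a1, Vegfa, Bnip3, P4ha1, P4ha2, Mxi1 and Kdm3a. Hk1, a hexokinase, ran the other way, with 80.1 and 74.6 CPM in A2, against 36.9 and 45.4 CPM in S2 (0.92 ± 0.13). So did Aldoc, an aldolase (1.82 ± 0.42), and Egln3, a prolyl hydroxylase of the hypoxia-inducible factors (1.02 ± 0.23), both not called without S2 B (adjusted p = 0.0765 and 0.0689). Egln3 was also not called without A2 A (adjusted p = 0.297), and Aldoc was at 2.67 without S2 A. The count of lower members was 6 without A2 A, 7 without A2 B, 12 without S2 A and 6 without S2 B, and 11 with DESeq2.

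Promoters of 3 of the lower genes are shown because hypoxia-inducible factors bind a short core, ACGTG or GCGTG. The windows run from 250 bases before to 50 after the RefSeq gene start (GRCm38.p6), each printed along its gene's strand. Capitals mark ACGTG or GCGTG and their reverse complements CACGT and CACGC, and neighbouring matches that overlap form 1 run. Pdk1 lies at chr2:71872974-71873273 (plus strand), Ak4 at chr4:101419039-101419338 (plus strand) and Bnip3 at chr7:138909457-138909756 (minus strand).
Pdk1: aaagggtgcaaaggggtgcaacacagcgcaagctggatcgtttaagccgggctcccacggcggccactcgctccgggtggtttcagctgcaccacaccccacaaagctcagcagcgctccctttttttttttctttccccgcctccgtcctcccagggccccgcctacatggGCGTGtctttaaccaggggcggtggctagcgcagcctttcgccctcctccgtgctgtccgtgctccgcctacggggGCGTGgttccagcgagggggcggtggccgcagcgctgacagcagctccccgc
Ak4: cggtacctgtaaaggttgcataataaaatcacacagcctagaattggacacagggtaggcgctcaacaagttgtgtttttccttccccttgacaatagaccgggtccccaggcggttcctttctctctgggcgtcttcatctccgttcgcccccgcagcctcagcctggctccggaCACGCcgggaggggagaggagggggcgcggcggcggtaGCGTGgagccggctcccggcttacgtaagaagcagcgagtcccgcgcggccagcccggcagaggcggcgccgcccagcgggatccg
Bnip3: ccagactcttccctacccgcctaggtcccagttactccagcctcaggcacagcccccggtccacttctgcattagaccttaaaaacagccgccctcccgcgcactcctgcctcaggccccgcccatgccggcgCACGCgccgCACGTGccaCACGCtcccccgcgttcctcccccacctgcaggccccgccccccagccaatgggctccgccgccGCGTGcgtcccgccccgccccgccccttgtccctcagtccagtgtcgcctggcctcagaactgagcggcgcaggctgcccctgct
Pdk1 and Ak4 hold 2 capital runs each and Bnip3 holds 4. Bnip3, a mitochondrial receptor for mitophagy chosen after its values were seen, had 45.2 and 38.6 CPM in A2, against 59.5 and 92.5 CPM in S2 (-0.83 ± 0.17, adjusted p = 0.00149). A match was found in 10 of the 12 lower members with a RefSeq window (83.3%), in 27 of 35 list members tested with one (77.1%) and in 63.3% of 10053 windows of genes tested. The letters were frequent in promoters of all genes tested, and a match is a description of the sequence only.

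Of 37 genes of NRF2 and glutathione metabolism, 14 were called higher in A2 (37.8%) and 1 lower (2.70%), with a median of 0.23. All genes tested gave 6.13% and 4.97%, and the other members were not called. The higher count ran from 10 to 14 with a library left out and was 14 with DESeq2. G6pdx, the entry enzyme of the pentose phosphate pathway, had 325 and 364 CPM in A2, against 176 and 194 CPM in S2 (0.89 ± 0.10, adjusted p = 1.95e-07). Aldh3a1, an aldehyde dehydrogenase, had 898 and 768 CPM in A2, against 377 and 314 CPM in S2 (1.27 ± 0.15, adjusted p = 2.69e-07). Gstm1, a glutathione transferase whose reads may be split with near copies such as Gstm2, had 185 and 157 CPM in A2, against 93.2 and 98.6 CPM in S2 (0.84 ± 0.12). Nqo1, Gsr, Srxn1, Tkt, Me1, Gstm2, Gpx1, Cat, Fth1, Cbr3 and Urah were the other higher members, and Aldh1a1 was the lower one. MEFs had a mean of 0.249 CPM of Aldh3a1 and ESCs 1.34 CPM, both far under either medium.

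Of 25 cholesterol synthesis genes, 7 were called lower in A2 (28%, beside 4.97% of all genes tested) and 0 higher. The median was -0.34, and 22 had a log2 fold change below 0. Lss, lanosterol synthase, had 17.9 and 16.7 CPM in A2, against 30.3 and 30.1 CPM in S2 (-0.79 ± 0.19). Cyp51, the next demethylase of the pathway, had 69.6 and 65.6 CPM in A2, against 103 and 97.4 CPM in S2 (-0.56 ± 0.15). The count rested on single libraries, at 1 without A2 A, 2 without A2 B, 2 without S2 A and 4 without S2 B, and at 4 with DESeq2. The Lss and Cyp51 calls were lost without A2 A (adjusted p = 0.0510 and 0.0921), and the Cyp51 call also without A2 B or S2 A (adjusted p = 0.0846 and 0.120).

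Across the gene lists tied to the 2 agents, members were called in both directions. Dot1l, the target of SGC0946, had 15.2 and 15.4 CPM in A2, against 12.2 and 21.9 CPM in S2 (-0.13 ± 0.25, not called). Among 24 DOT1L and elongation partners, Mllt3 (0.56 ± 0.12) and Aff1 (0.74 ± 0.17) were called higher (8.33%, beside 6.13% of all genes tested). Both are subunits of the complexes that recruit DOT1L or release the polymerase. Aff3 was called lower (4.17%, beside 4.97% of all genes tested). These shares were near those of all genes, and 17 of the 24 had a negative fold change. The Aff1 call was lost without S2 A (adjusted p = 0.0530), and the Aff3 call without any 1 of the 4 libraries. Of 16 Tet and DNA methylation genes, Apobec1 was called higher (6.25%, beside 6.13% of all genes tested) and Gadd45a and Tet1 lower (12.5%, beside 4.97%). Apobec1, a cytidine deaminase, had 89.1 and 69.9 CPM in A2, against 29.2 and 22.7 CPM in S2 (1.62 ± 0.20, adjusted p = 8.80e-07). Gadd45a, a stress gene tied to DNA demethylation, had 38.8 and 45.5 CPM in A2, against 77.6 and 92.9 CPM in S2 (-1.03 ± 0.17). Tet1 had 2.53 and 6.43 CPM in A2, against 12.5 and 9.08 CPM in S2 (-1.47 ± 0.43), and its call was lost without A2 A or S2 A (adjusted p = 0.496 and 0.250). Of 18 Jumonji genes, 1 was higher (Kdm4a, 5.56%) and 3 were lower (Jarid2, Kdm7a and Kdm3a, 16.7%). All genes tested gave 6.13% and 4.97%, and fewer Jumonji genes were lower without A2 A. Kdm7a, a demethylase, had 42.0 and 40.3 CPM in A2, against 67.5 and 65.6 CPM in S2 (-0.69 ± 0.16). The calls of Kdm4a, Jarid2 and Kdm3a were lost without A2 A (adjusted p = 0.440, 0.118 and 0.0932), and that of Kdm4a also without S2 A (adjusted p = 0.484). Of 16 other ascorbate-dependent dioxygenases and ascorbate transporters, Egln3 and Fto were called higher (12.5%, beside 6.13% of all genes tested) and 0 lower. Fto was not called without A2 A, S2 A or S2 B, or with DESeq2 (adjusted p = 0.114).

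Imprinted genes had 5 of 28 called higher (17.9%) and 3 lower (10.7%), beside 6.13% and 4.97% of all genes tested. Fewer were called higher without A2 A, S2 A or S2 B, and fewer lower without A2 A. Nnat, a membrane proteolipid, had 110 and 102 CPM in A2, against 29.9 and 38.8 CPM in S2 (1.64 ± 0.19, adjusted p = 5.31e-07). Grb10, a growth-restraining adaptor, had 1260 and 1342 CPM in A2, against 865 and 775 CPM in S2 (0.67 ± 0.13). H19, a noncoding RNA, had 121 and 65.2 CPM in A2, against 23.3 and 38.0 CPM in S2. It was not called in the fit of all libraries (1.67 ± 0.65, adjusted p = 0.0987). H19 was called in the fit of the compared groups alone (1.65, adjusted p = 7.30e-05). Its neighbour Igf2 was not called in the fit of all libraries (2.25 ± 1.12, adjusted p = 0.210) and was at -1.12 with listed cells kept (adjusted p = 0.330), while it was called without a count filter and in the fit of the compared groups alone (adjusted p = 0.0234 and 6.57e-04). The 3 lower genes were Dlk1, Peg12 and Ube3a. Peg12 had 25.3 and 27.0 CPM in A2, against 44.9 and 47.9 CPM in S2 (-0.83 ± 0.20), and Ube3a, a ubiquitin ligase, was at -0.48 ± 0.13. Dlk1, a transmembrane protein of the Notch ligand family, had 3 UMIs in A2 and 37 in S2, a ratio of 0.0642 (0.0127 to 0.203). The calls of all 3 were lost without A2 A (adjusted p = 0.245 for Dlk1, 0.107 for Peg12 and 0.114 for Ube3a), that of Dlk1 also without S2 B (adjusted p = 0.0758) and that of Ube3a also without A2 B or S2 A (adjusted p = 0.0815 and 0.177).

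Growth-control genes moved in small numbers. Ccnd1, the cyclin that MAP kinase and Wnt signals induce, had 964 and 977 CPM in A2, against 508 and 684 CPM in S2 (0.70 ± 0.10, adjusted p = 1.03e-05). Cdkn2b, an Ink4 inhibitor, had 68.4 and 70.4 CPM in A2, against 24.7 and 36.7 CPM in S2 (1.19 ± 0.20), and was at 0.30 (adjusted p = 0.481) with listed cells kept. Cdkn2a, whose locus makes an Ink4 and an Arf product that the counts do not separate, was called at 0.83 ± 0.19, and was at 0.47 (adjusted p = 0.222) without S2 A. Of 62 S phase genes 0 were higher and 2 lower (3.23%), and of 63 G2/M genes 1 was higher and 1 lower (1.59% each). These shares were under those of all genes tested, 6.13% higher and 4.97% lower. The lower S phase count was 0 without A2 A or S2 A, 1 without A2 B and 6 without S2 B. Id2, a target of BMP signals, had 359 and 372 CPM in A2, against 678 and 536 CPM in S2 (-0.73 ± 0.14). Its TGF-beta and BMP list had 4 of 26 called higher (15.4%) and 2 lower (7.69%), beside 6.13% and 4.97% of all genes tested. That higher count was 0 without A2 A and with listed cells kept, and 2 without S2 A or S2 B.

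Genes of other lineages were called in both directions. Of 25 neural genes, Sox11, Map2, Neurog2, Nrcam and Nefl were lower (20.0%, beside 4.97% of all genes tested) and Nes and Stmn2 higher, with a median of -0.47. Map2, a microtubule protein of neurons, had 7.12 and 12.9 CPM in A2, against 24.7 and 26.4 CPM in S2 (-1.44 ± 0.28). Stmn2, a stathmin of neurons, had 402 and 336 CPM in A2, against 239 and 218 CPM in S2 (0.70 ± 0.14). The lower neural count was 0 without A2 A, 3 without S2 A, 2 without S2 B and 2 with DESeq2. Of 14 trophoblast and primitive endoderm genes, 3 were lower (21.4%, beside 4.97% of all genes tested) and 1 higher (7.14%, beside 6.13%). Their median was -0.41. Fewer were lower without A2 A or S2 B, and 1 was lower with DESeq2. Of 16 blood and endothelial genes, 3 were higher and 3 lower, 18.8% each way, beside 6.13% and 4.97% of all genes tested. Fewer were lower without A2 A. Kit, the receptor of stem cell factor, had 1.84 and 1.72 CPM in A2, against 16.4 and 18.2 CPM in S2 (-3.23 ± 0.39, adjusted p = 7.86e-07). Tfap2c, a factor of trophoblast and germ cells, had 2 UMIs in A2 and 109 in S2, a ratio of 0.0145 (0.00174 to 0.0538). Cd34, a sialomucin of progenitor cells, had 171 and 138 CPM in A2, against 87.3 and 86.3 CPM in S2 (0.84 ± 0.13). Laptm5, a lysosomal protein of blood cells, had 186 and 179 CPM in A2, against 79.7 and 101 CPM in S2 (1.02 ± 0.17), in libraries where Ptprc was at 0. Apoe, the lipid carrier, had 8.27 and 5.15 CPM in A2, against 30.6 and 29.3 CPM in S2 (-2.07 ± 0.34). Slpi, a secreted protease inhibitor, had 68 UMIs in A2 and 0 in S2 and was at least 18.0-fold higher in A2.

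Several lists had no more called members than all genes tested. Of 75 respiratory chain genes, 1 was higher and 1 lower. Neither the 34 germline genes nor the 32 genes of ATF4 and unfolded-protein stress held a called member by edgeR. Of 34 interferon-response genes 2 were higher (5.88%), although 28 had a positive fold change and the median was 1.20, or 0.93 with genes at 0 set at their bound. That count was 0 without A2 A, S2 A or S2 B, 1 without A2 B, and 6 in the fit of the compared groups alone. The 9 genes of RNA quality and stress held 0 calls. Shares of UMIs on ribosomal-protein genes were 14.7% and 13.9% in A2, against 13.5% and 13.8% in S2.

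**Figure D4:**
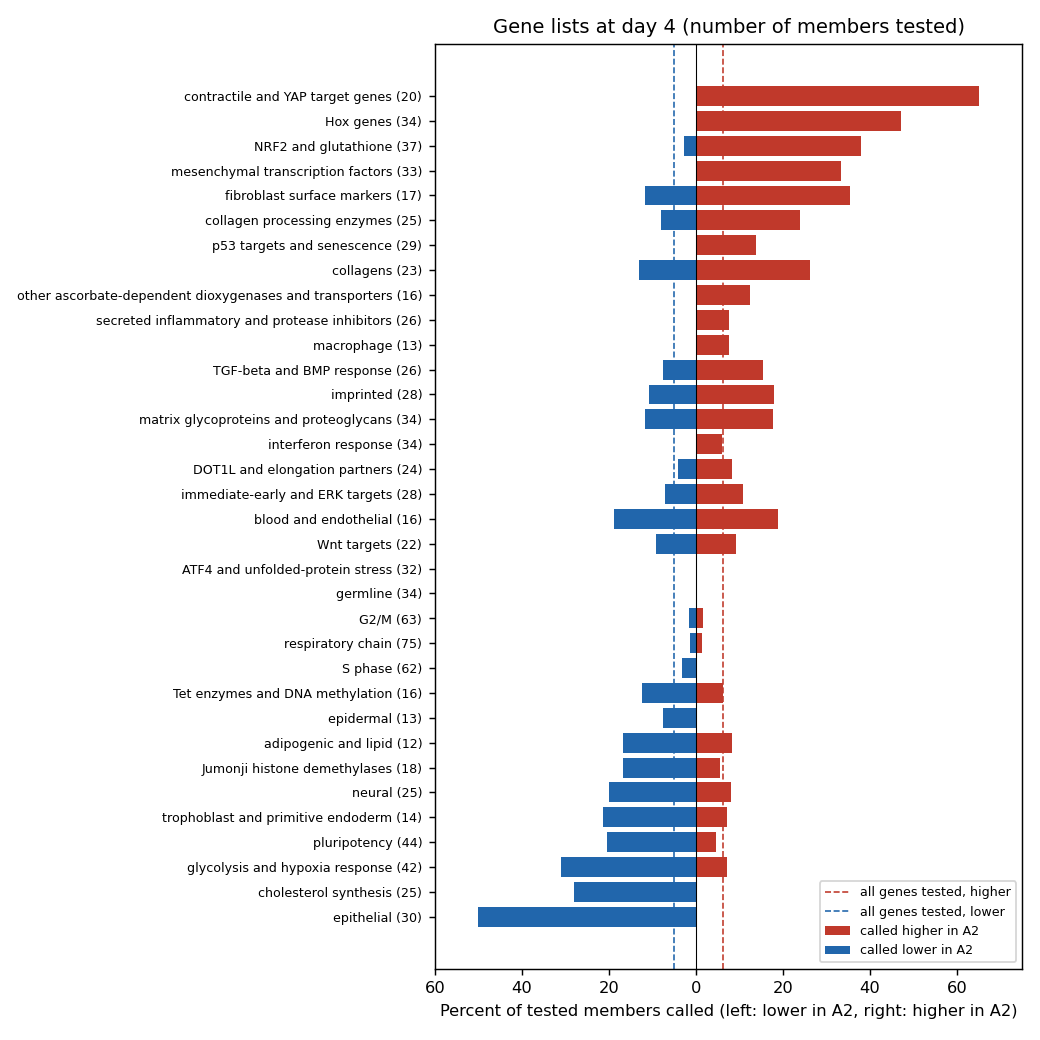
Percent of tested members called higher (red, to the right) and lower (blue, to the left) in A2 for each list with at least 10 tested members, whose number stands after its name. Dashed lines give the same shares over all genes tested, 6.13% higher and 4.97% lower. Contractile, Hox and NRF2 lists reach farthest to the right and the epithelial list farthest to the left.

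Cultures with all of ascorbic acid, 2i and SGC0946 (A2S, day 4) lay between the 2 media for most called genes. The A2S mean was between the A2 and S2 means for 484 of the 811 genes called higher (59.7%) and for 448 of the 658 called lower (68.1%), against 32.3% of all genes tested. A called gene leaves a wider gap for a value to fall in. Among genes higher in A2, A2S was below both media for 251 (30.9%) and above both for 76 (9.37%). Mgp in A2S had a mean of 27.4 CPM, under both media, while Adh7 had 195 CPM, above both. Cdh1 had a mean of 161 CPM and Epcam 58.3 CPM in A2S, above both media. Pdk1 had 57.3 CPM, between them.

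The same media at day 6, in libraries on no side of the day 4 difference, differed in more genes. Both days were tested in 1 fit of all 32 libraries, which share the gene filter and the estimate of spread. The tests of the 2 days were therefore not fully separate. At day 6, 1233 genes were called higher in A2 (9.32%) and 895 lower (6.77%), 16.1% together. Of the 1469 day 4 calls, 702 were called the same way at day 6, which is 47.8% of day 4 calls and 33.0% of day 6 calls, and 15 were called the opposite way. The sign was kept by 1251 of the 1469 (85.2%), against 61.0% of all genes tested. Across the 1469 genes the 2 days' log2 fold changes had a Pearson r of 0.773, a description across genes that are not independent replicates. By list, 14 of the 15 lower epithelial genes, 12 of the 16 higher Hox list genes, 9 of the 13 higher contractile genes, 11 of the 13 lower glycolysis and hypoxia genes and 7 of the 14 higher NRF2 genes were called the same way at day 6. Of the 7 lower cholesterol genes, 1 was.

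**Figure D5:**
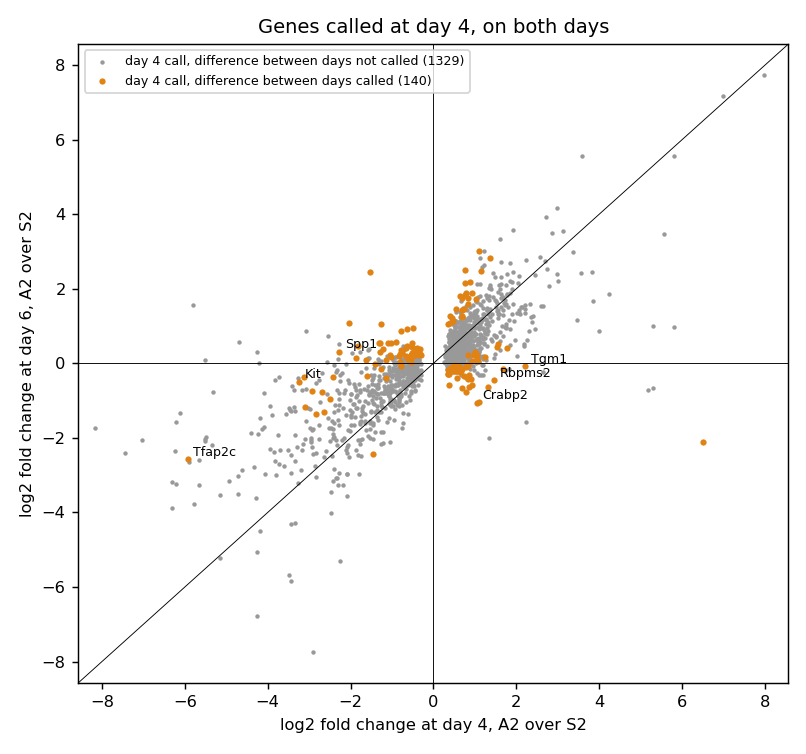
Log2 fold changes, A2 over S2, at day 4 (horizontal) and day 6 (vertical) for the 1469 genes called at day 4. Orange points are the 140 genes whose difference between the media itself differed between the days, and the diagonal marks equal fold changes. Most points lie in the lower left and upper right, and Crabp2 and Tgm1 lie below 0 at day 6 while above 0 at day 4. Fitted values of genes with 0 UMIs in a group are not bounds.

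The test of the difference between the days called 332 genes (2.51%), of which 140 were day 4 calls (9.53% of those). In 222 genes the A2 over S2 fold change was more positive at day 6 (1.68%) and in 110 it was more negative (0.832%). Crabp2, a carrier of retinoic acid, had 412 and 290 CPM in A2, against 161 and 180 CPM in S2 at day 4 (1.06 ± 0.16). At day 6 it had 129 and 135 CPM in A2, against 264 and 286 CPM in S2 (-1.06 ± 0.16). Its change between the days was -2.12 ± 0.23 (adjusted p = 3.13e-06), and both days were called.

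The decrease of Kit in A2 at day 4 was not called at day 6. Kit had 32.4 and 20.4 CPM in A2, against 32.8 and 41.3 CPM in S2 at day 6, a change of 2.74 ± 0.46 between the days (adjusted p = 0.00186). Krt19, a simple keratin, and Mapk13, a stress-activated kinase, were not called at day 4 (0.36 ± 0.21 and -0.32 ± 0.30) and were lower in A2 at day 6 (-1.61 ± 0.27 and -2.31 ± 0.24). Krt19 had 26.8 and 25 CPM in A2, against 83.5 and 73.9 CPM in S2 at day 6. The changes between the days were -1.97 ± 0.34 for Krt19 and -1.99 ± 0.38 for Mapk13, and those of Crabp2, Kit, Krt19 and Mapk13 were called in every alternative run. These 4 were chosen for description after their values were seen.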

How the data were processed

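Single-cell RNA libraries of reprogramming MEFs were measured with a 3' droplet kit, and reads were processed with bcl2fastq 2.19 and STAR on mm10, per the submitters' processing notes. The deposited files hold UMI counts per cell and gene, not normalized, for barcodes that the authors kept past a knee filter; no source used here names the counting program or its rule for overlapping genes. No mitochondrially encoded gene was among the 24421 genes. Of 8334 barcodes, 684 on the authors' deposited feeder list were left out by barcode and sample group, and 7650 were kept; 2 further columns of that list were not used. No doublet caller was run, since UMIs were summed per library without cell typing.

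Sums were fitted with edgeR 4.0.16 (R 4.3.3; TMM, filterByExpr, quasi-likelihood, 16 groups, 16 residual degrees of freedom), with 13229 genes tested and Benjamini-Hochberg adjustment over all of them. DESeq2 1.42.0 was an alternative. Recovery was checked on simulated counts of 13080 genes for A2 against S2 at day 4. Of 67 genes changed 1.5-fold 41.8% were called, of 67 changed 2-fold 77.6% and of 66 changed 4-fold 100%, with 8 false calls of 154. Changed genes were drawn only from those above a minimum level, with negative binomial noise at the fitted dispersions. The recovery therefore does not cover genes of few UMIs. For genes at 0 in a medium, "at least" folds use a floor of 3 UMIs over the group. For 1 to 3 UMIs, ratios have exact 95% intervals, which treat UMIs as independent counts though 1 cell can hold several. Cell shares have Wilson 95% intervals after thinning, and shares of 0 the limit that a floor of 3 cells allows. Tables and plots used Python 3.11.15, pandas 2.3.3, scipy 1.17.1 and matplotlib 3.10.9. Promoters are RefSeq windows of GRCm38.p6, matched by symbol for 76.0% of genes tested.

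Genes named were the 12 largest called changes each way at 25 CPM or more without overlap between media, a panel, and up to 3 called members each way per list (or 2 where none was called). For the difference between days they were the 6 largest each way. Part of these genes is described here, chosen for length after their values were seen, and a few genes are not reported here, though counts over lists include them. The members and the 37 lists were chosen with earlier results of these data known. Whether replicates A and B were separate cultures is not in the labels. The p-values therefore rest on the spread between libraries, which may be technical. With 2 libraries against 2, an exact permutation test of a single value cannot go below p = 0.333. Alternatives were RLE factors, no count filter, a replicate block, no removal of listed feeder cells, a minimum of 1000 UMIs per cell, a fit of only the groups in the comparison, DESeq2, and each library left out.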

Additional observations from a re-analysis of the deposited data

Results flagged for a closer look

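For 33 of the named genes the difference between A2 and S2 media itself differed between day 6 and day 4, by edgeR's quasi-likelihood test of the interaction. Values below are the day 6 log2 fold change minus that of day 4, A2 over S2, with adjusted p from 3.13e-06 to 0.0466. For all but 11 of these genes the interaction was not recomputed under the alternatives. Many of them were named for their day 4 values, so a smaller difference at day 6 can follow from that choice alone. Over all genes called at day 4, the median absolute log2 fold change was 0.86 at day 4 and 0.59 at day 6.

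Genes lower in A2 at day 4 whose deficit was smaller or turned by day 6 were Afap1l1 (1.92), Alpl (1.46), Bex4 (1.34), Rragd (1.55), Nt5e (2.05), Spp1 (2.59), Kit (2.74), Tfap2c (3.36), Thbs2 (1.63), Dcn (1.85), Ube3a (0.69) and Dkk3 (2.30). The fitted value of Tfap2c rests on 2 UMIs in A2 at day 4.

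Genes higher in A2 at day 4 and more so at day 6 were Tcf4 (0.71), Vim (0.56), Hoxc8 (1.47), Tgfbr2 (1.06), Dab2 (0.96) and Cd34 (0.75). Those higher at day 4 with a lesser or opposite difference at day 6 were Tgm1 (-2.31), Tagln (-1.38), Phlda3 (-0.86), Atp5e (-0.69), Gstm1 (-0.61), Stmn2 (-1.35), Nes (-0.75), Crabp2 (-2.12) and Rbpms2 (-1.93). Spint2, lower in A2 on both days, was lower still at day 6 (-0.97).

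Wisp2 (4.00), Serpinb9b (2.62), Gpnmb (2.62), Mapk13 (-1.99) and Krt19 (-1.97) were not called at day 4. Wisp2 was at 2.44 (adjusted p = 0.0779) with listed cells kept. Serpinb9b was at 0.70 there (adjusted p = 0.675), and its call also ended without each of 6 libraries. Gpnmb was at 0.54 (adjusted p = 0.801) without S2 day 4 B, and its call also ended without each of 6 other libraries, with DESeq2 (adjusted p = 0.128) and in the fit of the compared groups alone (adjusted p = 0.0517). Tgm1 was not called without each of 6 libraries (adjusted p = 0.248 without S2 day 4 A), with DESeq2 (adjusted p = 0.0548) or with listed cells kept (adjusted p = 0.0639). Tfap2c was at 1.94 (adjusted p = 0.439) without A2 day 4 A and was also not called without each of 5 other libraries or with DESeq2 (adjusted p = 0.0573). Spp1 was at 1.57 (adjusted p = 0.0599) without S2 day 4 B, and Rbpms2 lost its call without S2 day 4 A, A2 day 6 A or S2 day 6 A (adjusted p = 0.0670, 0.0514 and 0.0611).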

How the results depend on the processing

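Without 1 library, genes called higher in A2 at day 4 numbered 397 to 706, against 811 with every library, and genes called lower 222 to 489, against 658. The lowest counts came without S2 A (397 higher and 361 lower) and without A2 A (409 and 222), and 634 and 427 were called without A2 B. At day 6 the ranges were 683 to 934 higher and 441 to 640 lower, and for the difference between the days 37 to 164 and 19 to 125. A medium left with 1 library was assumed to vary like the other groups. DESeq2 called 576 higher and 381 lower at day 4, 858 and 568 at day 6, and 141 and 90 for the difference between the days. With listed feeder cells kept, 697 were higher and 673 lower at day 4, and 76.8% of the higher and 83.6% of the lower calls were shared. Col1a1 turned to -0.83 there (adjusted p = 0.0315); the cause was not tested. Of 131 called genes among those named, 64 kept direction and call under every alternative, 100 did so apart from left-out libraries, and 0 changed sign. Leaving out A2 A ended 53 of the 131 calls, A2 B 21, S2 A 34 and S2 B 30, and keeping listed cells ended 16.

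Same-lettered libraries share only a letter: their deviations had r = -0.147 over 6705 genes. With the replicate block, 809 were called higher and 644 lower, and with the letters of S2 crossed, an alternative chosen after seeing the data, 817 and 655. Depth limits genes of a few UMIs per medium, such as Pou5f1 and Sox2, where a difference was not detectable.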
